A study of Mus musculus with 2 samples.

Results

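Transcripts of 10 receptors that mark resident macrophages of the heart, or with which macrophages take up debris, were followed in mouse heart tissue. They were taken by symbol (Timd4, Lyve1, Folr2, Cd163, Mrc1, Stab1, Marco, Msr1, Mertk and Axl), and all 10 are listed among the 24346 symbols of both libraries. RNA was sequenced from 2 samples of heart tissue of mice after a high-fat diet (HFD) and, going by the series title, myocardial infarction (MI), 1 library from heart treated with probucol and 1 from untreated heart. Both carry the age label day 14, with no starting event given. Both therefore share the diet and, if the title holds for both samples, the infarction. The column headers of both carry the mark HypoE, which the labels do not explain. The genotype, strain, sex, region of the heart and number of animals per library are not stated in the labels. Probucol is an antioxidant drug that lowers cholesterol. The series title concerns XCR1+ dendritic cells and CD4+ T helper-1 cells, and the comparison asks how the receptors of resident and scavenging macrophages stand beside that treatment.

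Resident macrophages of the heart are long-lived cells that can maintain themselves with little input from blood monocytes, and Timd4, Lyve1 and Folr2 are used to mark them. Scavenger receptors such as Marco, Msr1, Stab1, Mrc1 and Cd163 bind modified lipoproteins, matrix fragments, glycans or haemoglobin and carry them inside the cell. In efferocytosis, the uptake of dying cells, Mertk and Axl recognise phosphatidylserine on the dying cell through bridging proteins, Gas6 for both and protein S (Pros1) for Mertk. After an infarction such uptake clears dead heart muscle cells.

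RefSeq promoter sequences (GRCm38.p6) were available for 8 of the 10 genes; Lyve1 and Msr1 had no entry. The 250 bases before the start in the promoter entry are shown for Marco and Mrc1, scavenger receptors with lower transcript in the probucol library. They are also shown for Mertk and Axl, kinases of 1 family whose transcripts differed from each other. They lie at chr1:120505025-120505274 on the minus strand for Marco, chr2:14229164-14229413 on the plus strand for Mrc1, chr2:128698665-128698914 on the plus strand for Mertk and chr7:25788734-25788983 on the minus strand for Axl. Each is written 5′ to 3′ along the gene's strand. The start of an entry can differ from the annotated gene bounds given below, and the Mrc1 window reaches past the annotated gene start at 14229392. Capitals mark the letters GAGGAA, the core of sites for the macrophage factor PU.1, and GGGCGG, a GC box, on either strand.
Marco: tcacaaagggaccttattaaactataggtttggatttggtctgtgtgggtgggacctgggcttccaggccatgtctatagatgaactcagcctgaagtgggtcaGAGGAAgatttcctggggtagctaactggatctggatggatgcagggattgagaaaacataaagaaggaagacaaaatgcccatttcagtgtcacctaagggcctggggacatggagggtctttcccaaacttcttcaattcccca
Mrc1: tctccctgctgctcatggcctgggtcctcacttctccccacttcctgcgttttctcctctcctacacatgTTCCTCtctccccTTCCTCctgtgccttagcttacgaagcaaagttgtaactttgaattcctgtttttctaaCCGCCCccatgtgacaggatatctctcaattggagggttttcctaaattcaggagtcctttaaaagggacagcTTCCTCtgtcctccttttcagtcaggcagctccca
Mertk: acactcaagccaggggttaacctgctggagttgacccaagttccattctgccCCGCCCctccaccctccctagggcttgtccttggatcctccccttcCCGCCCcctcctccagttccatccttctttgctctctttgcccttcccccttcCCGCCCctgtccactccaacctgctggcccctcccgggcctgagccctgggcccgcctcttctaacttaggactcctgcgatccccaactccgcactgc
Axl: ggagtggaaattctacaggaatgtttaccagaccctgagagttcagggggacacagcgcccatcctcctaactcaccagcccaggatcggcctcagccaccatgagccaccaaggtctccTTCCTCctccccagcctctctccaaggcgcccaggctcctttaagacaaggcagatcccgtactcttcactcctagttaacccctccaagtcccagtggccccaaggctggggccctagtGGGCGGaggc

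The windows differed in the letters they hold. Counting Folr2 with its 2 entries, 4 of 9 entries held GAGGAA (Marco, Mrc1, Axl and Stab1), against 23.3% of all 32851 promoter windows of the same length. Mrc1 held it 3 times, 180, 167 and 35 bases before the start of its entry. GGGCGG was found in 3 of 9 entries (Mrc1, Mertk and Axl), against 32.7% of all windows, and Mertk held it 3 times. The longer PU.1 letters GAGGAAGT, which contain GAGGAA, were in 0 of 9 entries and in 2.44% of all windows. TGANTCA, the letters of AP-1, were in 1 entry, of Folr2, and in 6.75% of all windows. GC content ran from 36.8% in Cd163 to 63.6% in Mertk.

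With probucol, each of the 10 transcripts had a lower level than without, and 8 were at least 2-fold lower. The 5 scavenger receptors were all lower, from 2.29-fold for Cd163 to 7.01-fold for Marco. Folr2, Timd4 and Mertk were also lower, while Lyve1 and Axl differed by less than 1.5-fold. Levels are in FPKM, fragments counted per kilobase of transcript and scaled to sequencing depth, and a difference is given as the log2 ratio of probucol to untreated after adding 0.5 to each FPKM. With 1 library per group no difference has a replicate check, no test was possible, and each statement describes these libraries. In tissue RNA, fewer cells of a type and less RNA per cell cannot be told apart. Of 12882 genes with a mean of at least 0.5 FPKM, 5.14% were lower by 2-fold or more, 12.0% lower by 1.5-fold or more and 5.52% higher by 1.5-fold or more. All 10 receptors passed that filter. The counts of receptors past these limits were 8, 8 and 0. Their median log2 ratio was -1.22, against 0.01 for all genes measured. The 10 genes together held 100.3 FPKM with probucol and 233 without.

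**Figure D1:**
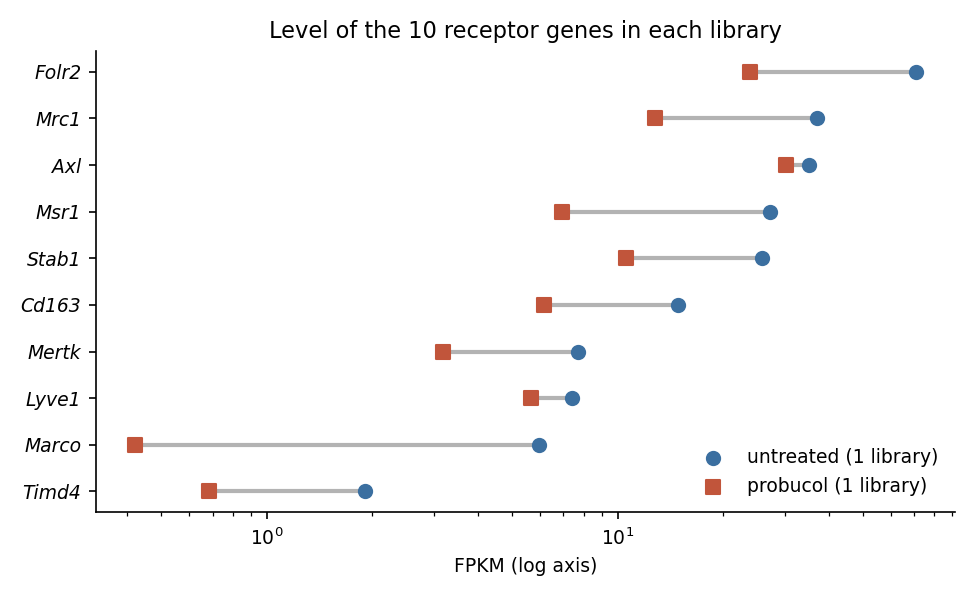
FPKM of the 10 receptor genes (log axis) in the untreated library (circles) and the probucol library (squares), ordered by the untreated level; each point is 1 library. Every square lies left of its circle, with the widest gap for Marco (0.420 against 5.95) and the narrowest for Axl (30.1 against 35.1).

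Markers of heart muscle were abundant in both libraries, all 10 of them higher with probucol (median 0.44), with sums of 70793 FPKM with probucol and 51256 without. Depth was similar. Low FPKM values moved in steps, which give 6.69 fragments per FPKM and kb of transcript with probucol and 7.46 without. From these steps fragment numbers were estimated. A 95% interval (Clopper-Pearson) of the ratio of FPKM is given from them. It covers counting error alone and says nothing of the spread between animals. Where PCR copies were counted, it is too narrow even for counting error, because such copies are not separate molecules.

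Among the genes of resident macrophages, Folr2, which encodes folate receptor beta (ENSMUSG00000032725, chromosome 7, 101839988 to 101857194, GRCm38), had 23.8 FPKM with probucol and 70.7 without. It was the most abundant of the 10 without treatment and came behind Axl with probucol. The log2 ratio was -1.55, 2.93-fold lower, and by the shortest of its RefSeq-matched transcripts (1067 to 1204 bases) it rested on 136 against 450 fragments, with an interval of the ratio from 0.276 to 0.409. Folr1, the folate receptor of epithelia, had 0.126 against 0.365 FPKM, from 1 and 3 fragments, and lay under the filter. The carriers Slc19a1 (-0.52), Slc25a32 (-0.27) and Slc46a1 (-0.13), which move folate across membranes, differed by less than 1.5-fold.

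Timd4, a phosphatidylserine receptor of long-resident macrophages (chromosome 11, 46810800 to 46844332), was the scarcest of the 10 in the untreated library. It had 0.683 FPKM with probucol and 1.91 without, from 9 and 28 fragments. The log2 ratio was -1.02, just past 2-fold, and the interval of the ratio ran from 0.149 to 0.782, so a difference smaller than 2-fold lies within counting error. The value depends on the pseudocount: it was -0.79 with 1, under the 2-fold limit, -1.36 with 0.1 and -1.48 with none. The ratio of Timd4 to Folr2 was nearly the same in both libraries, 0.0287 with probucol and 0.0269 without. Of its gene family, chosen after the values were seen, Havcr2, an inhibitory receptor known as TIM-3, had 0.594 against 4.84 FPKM (-2.29), from 10 and 91 fragments. Havcr1 (TIM-1) had 0.180 against 0.0806 FPKM, 2 and 1 fragments, and Timd2 was listed at 0 in both.

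Lyve1, a receptor for the matrix polysaccharide hyaluronan (chromosome 7, 110850607 to 110863239), had 5.67 FPKM with probucol and 7.42 without. These levels are close to each other, and the log2 ratio was -0.36, 1.28-fold lower. The estimated 101 and 148 fragments gave an interval from 0.585 to 0.987, which does not reach 2-fold lower. Folr2 was thus 4.20 times the level of Lyve1 with probucol and 9.53 times without. Lyve1 is also the standard marker of lymphatic endothelium. Of the other lymphatic markers, Prox1, their lineage factor, which heart muscle also makes, had 8.33 against 5.86 FPKM (0.47). Flt4, the receptor of lymphatic growth factors, had 4.30 against 4.52 FPKM (-0.06), and the chemokine Ccl21a had a log2 ratio of 0.20. Over the list with Lyve1, 1 of 8 genes was lower by 1.5-fold or more (Pdpn, -1.01, which fibroblasts and macrophages can make) and 0 higher, with a median of 0.12; the summed level was 84.9 FPKM with probucol and 82.3 without. The share of Lyve1 that came from lymphatic vessels was not tested.

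The partners of Lyve1 on the side of hyaluronan moved both ways. Cd44, the general hyaluronan receptor, had 5.55 against 12.4 FPKM (-1.09). Has1, a hyaluronan synthase, had 0.634 against 1.14 FPKM, and Has2, the synthase that the developing heart needs, had 1.15 against 0.531 (0.68), from 31 and 16 fragments with an interval from 1.15 to 4.23. Of 9 measured genes of this list 3 were lower by 1.5-fold or more and 1 higher, with a median of -0.53. The lowest, Hmmr (-1.30), is a hyaluronan-binding protein of the mitotic spindle and is best known as a gene of dividing cells.

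Other genes of resident macrophages were lower too. Of 16 measured, 14 were lower by 1.5-fold or more and 0 higher, with a median of -1.09. The lowest were Vsig4, a complement receptor of tissue macrophages (3.42 against 15.3 FPKM, -2.01), and Igf1, a growth factor that these cells and fibroblasts release (6.36 against 25.7 FPKM, -1.93). Hpgd, which breaks down prostaglandins, had -0.51 and Ninj1, a protein of membrane rupture made in many cells, had -0.37. Lyve1 (-0.36) was thus level with Ninj1, the highest of these genes, and Folr2 lay in the lower part of their range.

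Scavenger receptors were the lowest pair of the 10, and the other 3 were within the range of the remaining genes. Marco, a class A scavenger receptor for bacteria and particles (ENSMUSG00000026390, chromosome 1, 120474538 to 120505024), had 0.420 FPKM with probucol and 5.95 without. It was near the detection limit in the first library, with 5 fragments against 76. The log2 ratio was -2.81, rank 26 from the lowest of all genes measured. The fold of 7.01 depends on the pseudocount, since the FPKM themselves differ 14.2-fold, with an interval of the ratio from 0.0232 to 0.179. Msr1, the class A receptor for modified lipoproteins (chromosome 8, 39581685 to 39642673), had 6.93 against 27.1 FPKM, a log2 ratio of -1.89. Its transcripts differ in length from 1424 to 3636 bases, so that it rested on 56 to 159 fragments with probucol and 245 to 692 without. By the smaller numbers its ratio lay between 0.187 and 0.342. Marco stood at 0.0606 of the level of Msr1 with probucol and at 0.219 without, so the class A receptors of macrophages were not lower in proportion.

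The remaining class A receptors, which fibroblasts and other stromal cells make, were less different. Scara3 (-0.92) and Colec12 (-0.86), a collectin receptor of vessels and stroma, were lower, and Scara5, a ferritin receptor, had 24.5 against 20.1 FPKM (0.28). Across the 5 class A genes the order from lowest to highest thus ran from the macrophage receptors to Scara5. Grouping by family was chosen after the values were seen. Over the list of other scavenger receptors, 7 of 13 measured genes were lower by 1.5-fold or more and 0 higher, with a median of -0.78. The lowest were Cd5l (-2.74) and Cd68 (-2.35), and the highest was Cd36, the fatty acid receptor of endothelium, heart muscle and macrophages, with 1102 against 850 FPKM (0.37). Through Cd36 the sum over the list was higher with probucol, 1259 against 1174 FPKM.

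Mrc1, the mannose receptor CD206 (ENSMUSG00000026712, chromosome 2, 14229392 to 14332057), had 12.8 FPKM with probucol and 36.9 without. The log2 ratio of -1.50 was among the best supported of the 10, with 441 against 1421 fragments and an interval from 0.310 to 0.386. Mrc2, a collagen receptor of fibroblasts in the same family, had 3.55 against 6.44 FPKM (-0.78). Pla2r1, another member, had 0.692 against 0.892 FPKM (-0.22), and Ly75 had 1 against 6 fragments. Mrc1 is often read as a gene that interleukin 4 induces in macrophages, and genes of that programme were mixed. Of 8 measured, 4 were lower by 1.5-fold or more and 1 higher. Arg1, arginase 1, had 0.235 against 2.95 FPKM (-2.23), from 2 and 28 fragments. Mgl2, a lectin also made by dendritic cells, had 6.46 against 3.59 FPKM (0.77), with 59 and 37 fragments and an interval of the ratio from 1.16 to 2.76, and Retnla (0.52) rested on 7 and 5 fragments.

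Stab1, stabilin 1, which clears matrix fragments and modified lipoproteins (chromosome 14, 31139013 to 31168641), had 10.6 FPKM with probucol and 25.7 without. The log2 ratio was -1.24, with 550 against 1494 fragments and an interval from 0.372 to 0.453. Nt5dc2, a gene on the opposite strand that overlaps it, had 16.0 against 15.9 FPKM, so the pair differed. Folr2 and Mertk overlap antisense genes in the annotation as well, and since no source says that counting used the strand, reads of such partners cannot be told apart. Stab2, the stabilin of sinusoidal endothelium, had 5 against 16 fragments and lay under the filter. Stab1 is made by some endothelial cells as well as macrophages. Of 10 markers of vascular endothelium, 1 was lower by 1.5-fold or more (Vwf, -0.69) and 1 higher (Npr3, 0.65), with a median of 0.01 and sums of 350 and 354 FPKM; the endothelial part of Stab1 was not tested.

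Cd163, the receptor for complexes of haptoglobin and haemoglobin (chromosome 6, 124304656 to 124330527), had 6.18 FPKM with probucol and 14.8 without. Its log2 ratio of -1.20 rested on 173 against 463 fragments, with an interval from 0.348 to 0.497. Its ligand haptoglobin (Hp) had 18.8 against 55.2 FPKM (-1.53). Further along the handling of heme, Hmox1, heme oxygenase 1, was lower (-2.96), as was Slc40a1, the iron exporter ferroportin (13.6 against 45.8 FPKM, -1.71). Bach1, the repressor of Hmox1, and Fth1, the ferritin heavy chain, were close to level at -0.16 and -0.17. In all, 6 of 11 measured genes were lower by 1.5-fold or more and 0 higher (median -0.72). Blood differed between the samples in the other direction: Hba-a1, Hbb-bs and Alas2 were all higher with probucol, and the erythroid and B cell list summed to 3342 against 1719 FPKM. The part of blood content in these values was not tested. Of Cd163's own family, Cd5l, a secreted macrophage protein, had 0.408 against 5.56 FPKM (-2.74). Ssc5d, a soluble member, had -0.81.

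**Figure D2:**
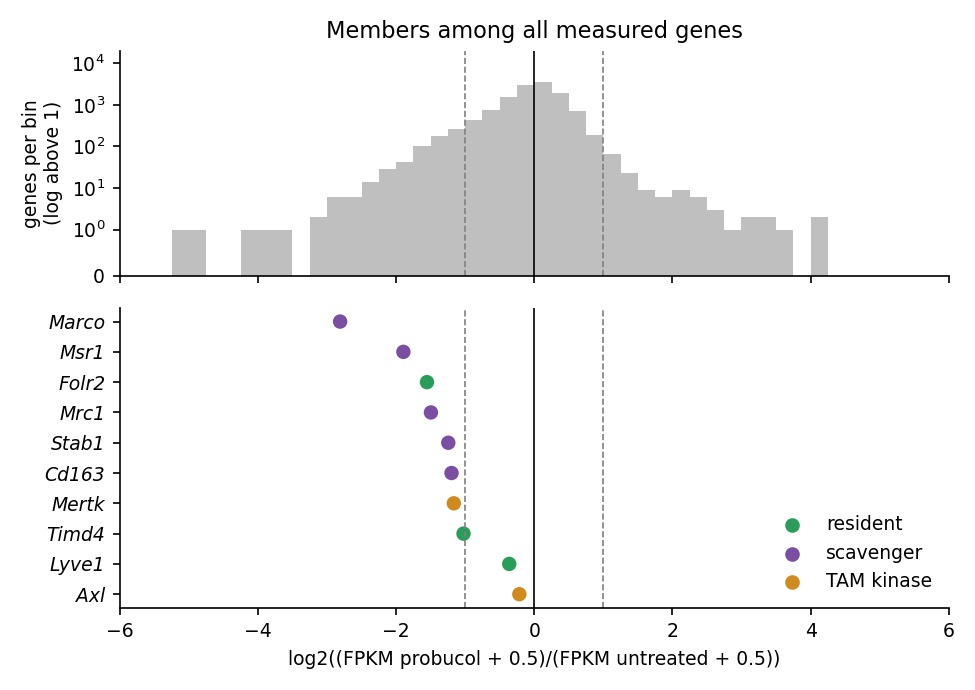
Upper panel, number of measured genes in bins of 0.25 of the log2 ratio of probucol to untreated (vertical axis logarithmic above 1); lower panel, the 10 receptor genes on the same horizontal axis, coloured by role. Dashed lines mark 2-fold; 8 receptors lie left of the lower line, and Lyve1 (-0.36) and Axl (-0.22) lie right of it.

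The efferocytosis kinases of the TAM family (Tyro3, Axl and Mertk) did not differ alike. Mertk (ENSMUSG00000014361, chromosome 2, 128698956 to 128802894), the family member of mature macrophages, had 3.17 FPKM with probucol and 7.72 without. The log2 ratio was -1.16, with 87 against 235 fragments and an interval from 0.319 to 0.530. Axl (ENSMUSG00000002602, chromosome 7, 25757273 to 25788705), which fibroblasts and vascular cells also make, had 30.1 FPKM with probucol and 35.1 without. Its log2 ratio was -0.22, with at least 743 against 964 fragments and an interval from 0.780 to 0.947. The intervals of Mertk and Axl do not overlap, but they cover counting error alone and not the spread between animals. Mertk stood at 0.105 of the level of Axl with probucol and at 0.220 without. Tyro3 was low in both libraries, 0.869 against 0.992 FPKM, from 22 and 28 fragments, with an interval from 0.478 to 1.59.

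The order of levels among the 10 differed between the libraries. Axl was the third most abundant without treatment and the most abundant with probucol, and its share of the summed FPKM of the 10 genes was 15.0% and 30.0%. Msr1 and Stab1, Mertk and Lyve1, and Marco and Timd4 also changed places as neighbours. Folr2 held 30.3% without treatment and 23.7% with probucol. Stab1, Cd163 and Mertk held nearly equal shares in both libraries: 11.0% and 10.5%, 6.35% and 6.16%, and 3.31% and 3.16%, each without treatment first.

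**Figure D3:**
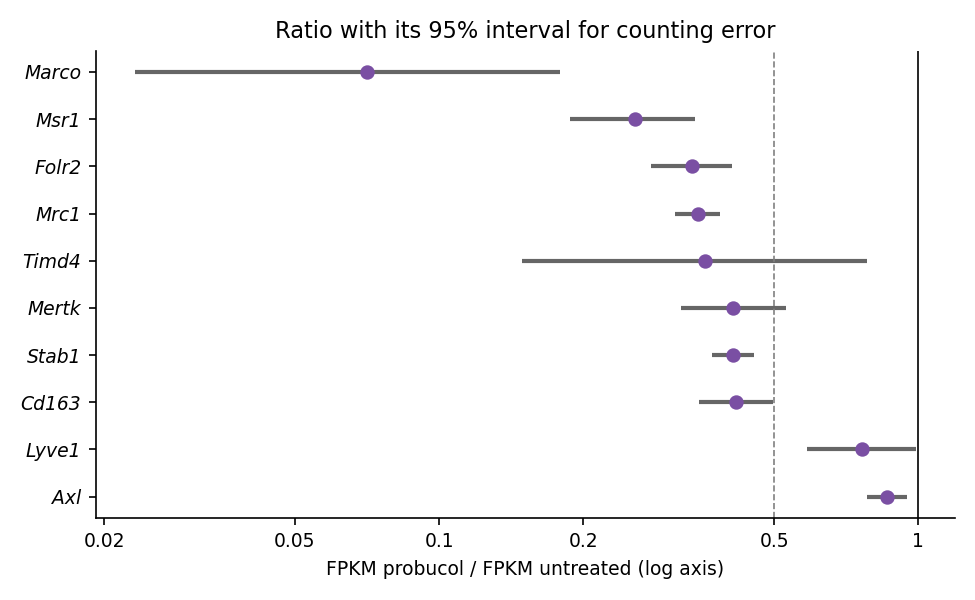
Ratio of FPKM, probucol over untreated (log axis), for each receptor gene (points), with the 95% interval that the estimated fragment numbers allow (lines); the solid line marks equal levels and the dashed line a ratio of 0.5. The lines of Marco and Timd4, with 5 and 9 fragments in the probucol library, are the widest, and those of Lyve1 and Axl lie right of 0.5.

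The ligands that bridge these kinases to dying cells were somewhat lower. Gas6 had 65.5 FPKM with probucol and 82.7 without (-0.33), with an interval of the ratio from 0.730 to 0.859. Pros1 had 15.4 against 23.4 (-0.58), just short of 1.5-fold, with an interval from 0.572 to 0.759. Mfge8, which bridges dying cells to integrins, had 69.6 against 72.3 FPKM (-0.05), and Calr, an eat-me signal that mainly serves as a chaperone, had the same log2 ratio. Of 12 measured bridging molecules and signals, 5 were lower by 1.5-fold or more and 0 higher, with a median of -0.53. The lowest, C1qc (-1.61) and C1qb (-1.52), are complement chains that macrophages make, and 3 of the 5 (with C1qa) also stand in the list of general macrophage genes.

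Other receptors for dying cells also differed from one another. Of 10 measured, 6 were lower by 1.5-fold or more and 0 higher (median -0.78). The lowest were Cd300lf, a phosphatidylserine receptor of myeloid cells (0.992 against 3.48 FPKM, -1.41), and P2ry6, a receptor for nucleotides leaking from injured cells (-1.06). Lrp1, which also stands in the list of other scavenger receptors, was among the 6 lower genes at -0.83. Itgav, an integrin chain of many cells, had -0.03, and Tyro3 -0.12. Of 11 genes of the engulfment machinery, 3 were lower by 1.5-fold or more: Dock2 (-1.35) and Rac2 (-0.91), which are found mainly in blood cells, and Rhog (-0.78). The more widely made counterparts, Dock1 and Rac1, had -0.03 and 0.06, and Crkl was the highest at 0.48.

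Genes that handle engulfed lipid were lower in part. Of 12 measured, 5 were lower by 1.5-fold or more and 0 higher (median -0.37). Soat1, which esterifies cholesterol for storage, had 2.15 against 6.67 FPKM (-1.43), and Lipa, the lysosomal lipase, had 23.4 against 53.2 (-1.17). The nuclear receptors Nr1h2 (-0.04) and Pparg (-0.02) were level. Of the proteases that cut Mertk and other receptors from the cell surface, Adam17 had -0.23 and Adam10 -0.21, and 0 of 5 genes of shedding were past 1.5-fold in either direction.

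Beside genes of macrophages in general, the 10 receptors spread to both sides. All 18 general genes were lower by 1.5-fold or more, with a median of -1.54, a range from -2.35 (Cd68) to -0.72 (Csf1r) and sums of 1488 against 4951 FPKM. Folr2 (-1.55) and Mrc1 (-1.50) lay at that median. Marco lay below all 18. Lyve1 and Axl lay above all 18. Timd4 lay above 17, but above 12 by the FPKM without a pseudocount. Cd163, Stab1 and Mertk each lay above 14 of them, and Msr1 above 3. After subtracting that median, Marco was at -1.26, Msr1 at -0.35, Cd163 at 0.35, Mertk at 0.38, Lyve1 at 1.18 and Axl at 1.33. The sign of such a value depends on the general gene taken as reference. Msr1 stood at 0.256 of the level of Cd68 with probucol and at 0.193 without, and Mrc1 at 0.472 and 0.263. Mertk stood at 0.174 of the level of Csf1r with probucol and at 0.254 without. A level per macrophage was not measured.

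**Figure D4:**
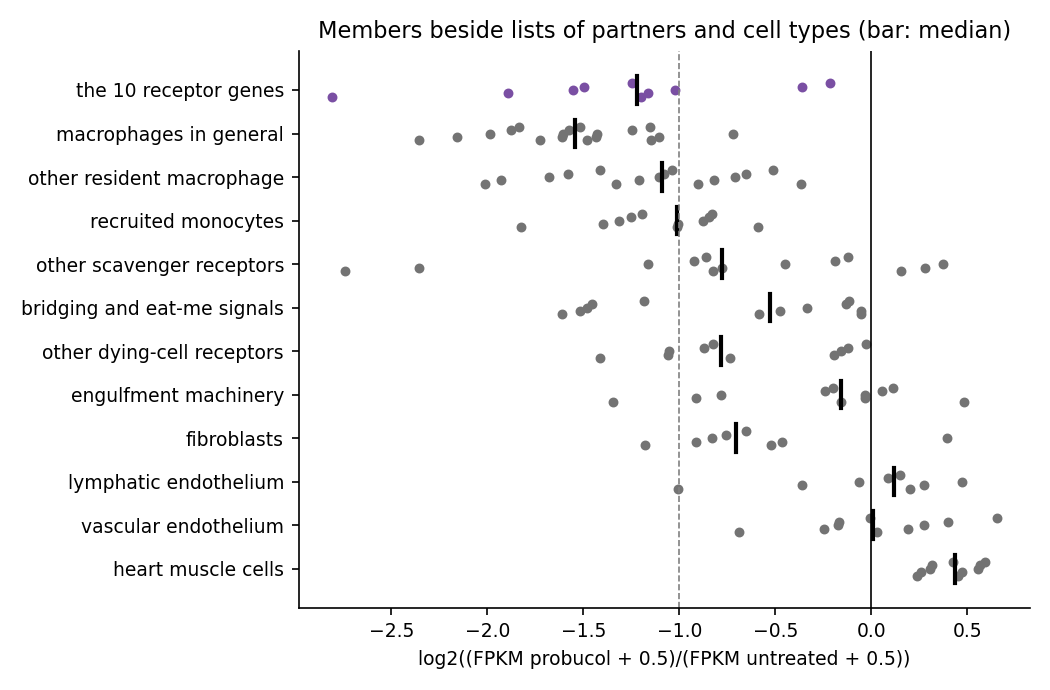
Log2 ratio of probucol to untreated (horizontal axis) for measured genes of each list (points, moved vertically only to part them), with the median as a bar; the dashed line marks 2-fold lower. The 10 receptors (median -1.22) overlap the general macrophage genes (-1.54) and reach further to both sides, while lymphatic and vascular endothelium lie near 0.

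Signals and regulators of macrophages were lower in part. Of 16 measured, 9 were lower by 1.5-fold or more and 0 higher (median -0.70). The transcription factor Irf8 of monocytes and dendritic cells had 4.19 against 11.7 FPKM (-1.38). Klf4 (0.39) and Klf2 (0.24), which endothelium also makes, were the highest. The growth factors of macrophages, Csf1 (14.2 against 17.4 FPKM) and Il34 (2.17 against 2.76), were at -0.28 and -0.29, while their receptor Csf1r was at -0.72.

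Genes of other cell types that carry these receptors were examined as lists. All 11 measured genes of recruited monocytes were lower by 1.5-fold or more, with a median of -1.01 and sums of 29.6 against 78.0 FPKM. Ly6c2 (3 and 9 fragments), Ifitm6 (1 and 4) and Ms4a4c (6 and 17) were scarce, and their intervals of the ratio include 1. Of the sums, Fn1 held 12.7 against 34.4 FPKM and Vcan, which also stands in the list around hyaluronan, 5.57 against 8.62. Fibroblast markers, of interest for Axl, had 5 of 8 lower by 1.5-fold or more and 0 higher, a median of -0.70 and sums of 1313 against 1721 FPKM. Macrophages of body cavities also carry Timd4. Their factor Gata6, which heart muscle makes as well, had 22.8 against 18.1 FPKM, and 3 of 5 measured genes of that list were lower, led by Prg4 (4.29 against 18.4 FPKM, -1.98), a lubricating protein that joint and mesothelial cells also release; sums were 74.9 against 104 FPKM. Macrophages of liver and lung carry Marco. Clec4f, which defines liver macrophages, was listed at 0 in both libraries. Of 6 measured genes of that list 4 were lower and 1 higher (Clec1b, 1.33, also a platelet gene), with sums of 84.9 against 132 FPKM. Among the lower genes, Cd5l, Vsig4 and Slc40a1 also stand in lists reported above. Of the sums, Cdh5, which also stands in the list of vascular endothelium, held 64.8 against 63.4 FPKM. By its shortest transcript Clec1b rested on 3 and 1 fragments, with an interval of the ratio from 0.269 to 176. Sftpc, Sftpb, Scgb1a1, Ear1 and Fabp1 of the lung list were listed at 0 in both; 0 of its 2 measured genes were lower and 1 higher (Car4, 0.93), with sums of 23.6 against 14.5 FPKM. Dendritic cell genes had 2 of 5 lower and 0 higher, with a median of -0.05 and sums of 13.3 against 18.95 FPKM. The part of these cells in the receptor levels was not tested.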

How the data were processed

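RNA was measured in 2 libraries of mouse heart, grouped by the treatment label; a stranded mRNA kit was used, per the labels' protocols. The authors deposited FPKM, 1 value per symbol and library, per the file headers. TopHat2 2.1.1, Bowtie2, Cuffdiff 2.2.1 and mm10 are named, per the submitters' processing notes; annotation, strand setting and scaling between libraries: not given in the sources used here. FPKM falls for all other genes where abundant transcripts take a larger share.

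Log2 ratios used a pseudocount of 0.5 and genes with a mean of at least 0.5 FPKM (Python 3.11.15, pandas 2.3.3, scipy 1.17.1). Fragment numbers came from the steps of low FPKM over genes with 1 curated RefSeq transcript matched to GENCODE (GRCm38), subtracting 215 bases from its length. Of 1230 (probucol) and 1171 (untreated) genes with under 6.5 fragments, 77.0% and 75.5% came within 0.1 of a whole number. For genes with several transcripts the shortest was used. The procedure was tested on simulated data.

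The members and lists were chosen with earlier results of these data known, so no p-value is given. Named were all 10 members and, of each list, the 2 lowest and 2 highest ratios or partners of a member. Other genes (Timd2, Havcr1, Havcr2, Ssc5d, Pla2r1, Ly75, Scara3, Colec12, Nt5dc2, C1qa, Csf1, Il34, Rhog, Dock1, Rac1, Ccl21a, Ly6c2, Ifitm6, Ms4a4c, Lrp1, Nr1h3, Ppard and those listed at 0), 8 lists by gene family and 2 of the 4 motifs were chosen after values were seen. 1 gene within this rule is not reported here.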

Additional observations from a re-analysis of the deposited data

How the results depend on the processing

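The results were recomputed under 8 other settings and 1 more, the ratio without a pseudocount, chosen after seeing the data. Of the 10 receptors, 8 were at least 2-fold lower under 7 of these 9. The share of all genes that far down ran there from 2.92% (no filter) to 7.36% (no pseudocount). With a pseudocount of 1, 7 receptors were that far down, beside 3.79% of all genes. Relative to the general macrophage genes 1 receptor (Marco) was, beside 0.256% of all genes, whose median in that setting was 1.55. The count past 1.5-fold was also 1 in that last setting, beside 0.458% of all genes. It was 8 in the other 8, beside 7.46% (no filter) to 15.8% (libraries scaled to the same sum of FPKM). The median of -1.22 became -1.32 with a pseudocount of 0.1, -1.17 with 1, -1.38 with none, -1.36 with both libraries scaled to the same sum of FPKM, -1.33 with that scaling without the 10 most abundant genes and -1.23 centred on all genes; the filter left it as it was. Scaling to the same sum moved the median of all genes to -0.13, and relative to all genes the median of the receptors was -1.23 with and without it. Centred on the general macrophage genes the median was 0.32. Timd4 (0.52), Cd163 (0.35), Mrc1 (0.050), Stab1 (0.30), Mertk (0.38), Lyve1 (1.18) and Axl (1.33) turned above 0. That setting subtracts the median of the general genes, and its signs depend on which general gene is the reference. No paired analysis was possible because each group has 1 library, and leaving out a replicate was not possible either. Depth limits Marco and Timd4, with under 10 fragments in 1 library. The spread between animals is unknown.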
